A study of Homo sapiens with 18 samples.

Results

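Aminoacyl-tRNA synthetases attach each amino acid to its matching transfer RNA, the charging step that supplies the ribosome. The 36 synthetase genes described here are 20 that encode the enzymes of the cytosol and 16 that encode those of the mitochondria, whose symbols end in 2. They were taken from the gene table by symbol, and all 36 of 36 were found among its 26485 genes. The table uses older symbols, such as AARS for the gene now called AARS1. GARS and KARS encode the cytosolic and the mitochondrial enzyme from 1 gene each, EPRS encodes a fused glutamyl- and prolyl-tRNA synthetase, and FARSA and FARSB encode the 2 subunits of the cytosolic phenylalanyl enzyme.

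All libraries came from the human pancreatic cancer line L3.6pl, which expressed the epithelial keratins KRT8, KRT18 and KRT19, whereas the leukocyte gene PTPRC was near 0. Of the listed markers, 5 of 5 epithelial and 0 of 4 leukocyte genes had a mean of at least 10 normalized counts. So did 2 of 3 endothelial and 2 of 4 fibroblast genes. Each of the 6 groups had 3 RNA-seq libraries, 18 in all. GemR is a gemcitabine-resistant derivative of L3.6pl kept in 64 nM gemcitabine, a nucleoside drug, and Par is the parental line without it. As GemR is 1 derived line kept in the drug, resistance, clonal history and drug exposure cannot be told apart. The first pair of groups were GemR cells given siRNA against STIM1 (GemR siSTIM1), the second GemR cells given control siRNA (GemR siCont) and the third Par cells given control siRNA, with 48 h between transfection and harvest. In each pair, 1 group spent the last 3 h in 500 nM thapsigargin and the other in DMSO vehicle. Thapsigargin blocks the SERCA pump that refills the calcium store of the endoplasmic reticulum, and STIM1 is the sensor of that store. The libraries held 8922439 to 16519239 reads assigned to genes. STIM1, the targeted gene, averaged 310 ± 40.8 and 382 ± 23.7 normalized counts in GemR siSTIM1 cells with thapsigargin and with vehicle, against 6187 ± 115 and 5890 ± 793 in GemR siCont cells (SD, n = 3 each), and 431 ± 15.1 and 457 ± 20.6 in Par cells.

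When unfolded protein accumulates in the endoplasmic reticulum or uncharged tRNA accumulates, kinases phosphorylate the initiation factor eIF2α, and the transcription factor ATF4 is then translated. Several cytosolic synthetase genes are known ATF4 targets, bound at C/EBP-ATF response elements, while the mitochondrial enzymes are nuclear-encoded proteins imported into the organelle. Many of the cytosolic enzymes are held in a multisynthetase complex on the scaffold proteins AIMP1, AIMP2 and EEF1E1.

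The promoter windows that hold a C/EBP-ATF core are shown first, since the values below are set against them. The core searched was TGATGNAA on both strands, in RefSeq windows of GRCh38.p14 running from 250 bases before to 50 bases after each transcript start. Windows were found for 30 of the 36 members, and not for DARS, LARS, VARS, YARS, AARS2 and VARS2. The core was present in 7 of 16 cytosolic members with a window (43.8%) and in 1 of 14 mitochondrial ones (7.14%), beside 1217 of all 27305 genes with a window (4.46%) and 1270 of all 35116 windows (3.62%). Each line below gives the gene strand 5′ to 3′ with the core in capitals, so that TTGCATCA and TTTCATCA are cores read from the opposite strand.
AARS: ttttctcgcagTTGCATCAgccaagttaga
CARS: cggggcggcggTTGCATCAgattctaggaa
GARS: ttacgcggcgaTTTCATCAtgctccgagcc
IARS: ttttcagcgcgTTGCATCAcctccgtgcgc
MARS: gccggttccggTTGCATCAgcgagggattc
NARS: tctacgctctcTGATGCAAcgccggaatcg
TARS: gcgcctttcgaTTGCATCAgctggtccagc
YARS2: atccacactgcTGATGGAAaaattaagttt
The AARS window is chr16:70289675-70289704 on the minus strand, with the first base of the core 187 bases before the start. The CARS window is chr11:3057407-3057436 (minus), 2 bases before it, the GARS window chr7:30594834-30594863 (plus), 33 bases before it, and the IARS window chr9:92293692-92293721 (minus), 13 bases before it. The MARS window is chr12:57488053-57488082 (plus), 4 bases before the start, while the core of NARS, chr18:57621804-57621833 (minus), begins at base 15 and that of TARS, chr5:33440956-33440985 (plus), at base 3 of the transcript. The YARS2 window, the 1 mitochondrial case, is chr12:32756076-32756105 (minus), 197 bases before the start. CARS, GARS and TARS each had 2 windows searched, for different transcript starts, and 1 of the 2 held the core. A match of these letters is a description of the sequence and not evidence of binding.

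Thapsigargin raised most cytosolic synthetase transcripts in all 3 settings and left most mitochondrial ones uncalled. Per gene, log2 values of the normalized count plus 1 were tested with limma over all 18 libraries and 13096 genes, all 36 members among them, and a gene was called at a Benjamini-Hochberg adjusted p under 0.05. Nothing in the sources used here says that libraries of a group came from separate cultures, so p-values measure the spread between these libraries, which may be technical. In bulk RNA, a change in each cell and a change in the share of cells that express a gene cannot be told apart. The summed counts of the 20 cytosolic genes made up 0.705 ± 0.0166% of all normalized counts in GemR siSTIM1 cells with thapsigargin, against 0.529 ± 0.0165% with vehicle (SD, n = 3 each). In GemR siCont cells the cytosolic sum was 0.616 ± 0.0101% with thapsigargin, against 0.530 ± 0.00608% with vehicle. In Par cells it was 0.808 ± 0.00878% with thapsigargin, against 0.542 ± 0.000723% with vehicle, and no treated library overlapped a vehicle library in any of the 3 settings. The summed 16 mitochondrial genes were at 0.0798%, 0.0786% and 0.0774% with thapsigargin in GemR siSTIM1, GemR siCont and Par cells, against 0.0860%, 0.0889% and 0.0874% with vehicle. The normalized total itself was higher with thapsigargin, in Par cells 14163961 to 14286313, against 13057411 to 13244331 with vehicle. As counts, the mitochondrial sums in Par cells were 10850 to 11140 with thapsigargin and 11090 to 11700 with vehicle, which overlap. These sums also overlapped in GemR siSTIM1 cells, but not in GemR siCont cells.

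**Figure D1:**
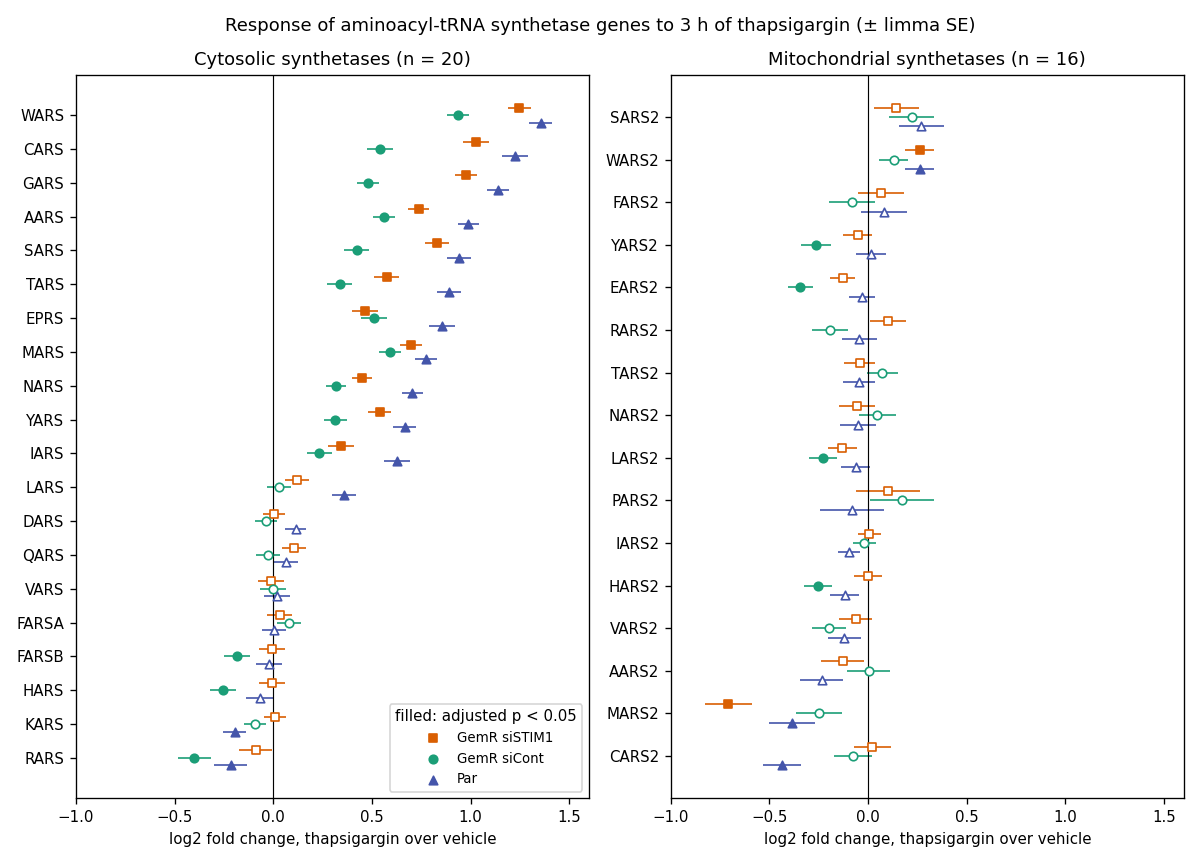
The horizontal axis gives the log2 fold change of thapsigargin over vehicle with its limma standard error for the 20 cytosolic (left) and 16 mitochondrial (right) synthetase genes, in GemR siSTIM1, GemR siCont and Par cells (n = 3 libraries per group), with filled symbols for adjusted p under 0.05. The cytosolic genes from WARS to IARS are filled in all 3 settings. LARS is filled in Par cells alone (0.36), and the rest lie near or below 0, while few mitochondrial symbols are filled.

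In Par cells, thapsigargin raised 12 of 20 cytosolic and 1 of 16 mitochondrial members and lowered 2 of each. Of all genes tested 40.1% were called, 20.5% higher and 19.7% lower. The median log2 fold change was 0.65 over the cytosolic members and −0.06 over the mitochondrial members, beside −0.02 over all genes tested. WARS, the tryptophanyl-tRNA synthetase, had the largest cytosolic change. It had 9309, 9464 and 9334 normalized counts in the thapsigargin libraries, against 3412, 3846 and 3741 in the vehicle libraries. Its treated libraries were all above its vehicle libraries, 2.56-fold higher in the fit (log2 1.36 ± 0.06 SE, limma adjusted p = 4.6e-13). CARS, the cysteinyl enzyme, had 3848, 3948 and 3982 counts with thapsigargin, against 1659.9, 1741 and 1639 with vehicle, 2.34-fold higher (log2 1.22 ± 0.07, adjusted p = 1.9e-11). GARS, the glycyl enzyme of both compartments, had 11932, 12303 and 12211 counts with thapsigargin, against 5422, 5629 and 5495 with vehicle, 2.20-fold higher (log2 1.14 ± 0.06, adjusted p = 4.8e-12). In all 3 genes the treated and the vehicle libraries were separated by more than the range within either group. AARS, SARS and TARS, the alanyl, seryl and threonyl enzymes, rose by 0.99, 0.94 and 0.89 on the log2 scale. EPRS rose by 0.85, MARS (methionyl) by 0.78, NARS (asparaginyl) by 0.70, YARS (tyrosyl) by 0.67, IARS (isoleucyl) by 0.63 and LARS (leucyl) by 0.36.

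Of the 8 remaining cytosolic members in Par cells, RARS (arginyl) fell by 0.22 and KARS (lysyl) by 0.20 on the log2 scale, with limma adjusted p of 0.047 and 0.0091. The RARS call was lost in 11 of the fits that left out 1 library, with an adjusted p of up to 0.16, and the KARS call without replicate 1 of Par thapsigargin (adjusted p = 0.059). DARS, QARS, VARS, FARSA, FARSB and HARS, the aspartyl, glutaminyl, valyl, phenylalanyl and histidyl enzymes, were not called, with log2 fold changes between −0.07 (HARS) and 0.11 (DARS). Among the mitochondrial members, WARS2, the mitochondrial tryptophanyl enzyme, had 560, 573 and 509 counts with thapsigargin, against 430, 476 and 462 with vehicle (log2 0.26 ± 0.07, adjusted p = 0.0075). MARS2, the mitochondrial methionyl enzyme, had 335, 384 and 316 counts with thapsigargin, against 464, 401 and 488 with vehicle (log2 −0.38 ± 0.12, adjusted p = 0.013). Neither gene's groups overlapped, though the MARS2 call was lost without replicate 3 of either Par group, with an adjusted p of up to 0.065. CARS2, the mitochondrial cysteinyl enzyme, had 334, 329 and 321 counts with thapsigargin, against 487, 433 and 415 with vehicle (log2 −0.44 ± 0.10, adjusted p = 0.0011), so the paired genes CARS and CARS2 changed in opposite directions. The other 13 mitochondrial members were not called.

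In GemR siCont cells thapsigargin raised 11 of 20 cytosolic and 0 of 16 mitochondrial members and lowered 3 and 4, against 33.6% of all genes called (17.9% higher, 15.8% lower). The median log2 fold change was 0.27 over the cytosolic and −0.08 over the mitochondrial members, beside −0.03 over all genes. WARS had 5025, 4985 and 4793 counts with thapsigargin, against 2455, 2638 and 2639 with vehicle, 1.91-fold higher (log2 0.94 ± 0.06, adjusted p = 1.3e-10). CARS had 1533, 1582 and 1568 counts with thapsigargin, against 1139, 1078 and 1007 with vehicle, 1.45-fold higher (log2 0.54 ± 0.07, adjusted p = 2.2e-06). GARS had 8144, 8848 and 8449 counts with thapsigargin, against 6300, 6124 and 5815 with vehicle, 1.39-fold higher (log2 0.48 ± 0.06, adjusted p = 1.3e-06). The treated libraries were again all above the vehicle libraries in the 3 genes, with a smaller gap than in Par cells. MARS, AARS and EPRS rose by 0.59, 0.56 and 0.51 on the log2 scale, and IARS by 0.23. RARS fell by 0.40 (adjusted p = 0.00093), HARS by 0.26 and FARSB by 0.18, and the FARSB call (adjusted p = 0.037) was lost without replicate 1 of GemR siCont vehicle and without each of the 3 GemR siCont thapsigargin libraries. Among the mitochondrial genes, EARS2, the glutamyl enzyme, had 1424, 1490 and 1444 counts with thapsigargin, against 1684, 1904 and 1957 with vehicle (log2 −0.34 ± 0.06, adjusted p = 0.00031), with no overlap. YARS2, HARS2 and LARS2 fell by 0.26, 0.26 and 0.23 (adjusted p = 0.01, 0.0091 and 0.021). The LARS2 call was lost without replicate 2 or 3 of GemR siCont vehicle or replicate 1 of GemR siCont thapsigargin, with an adjusted p of up to 0.087.

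With STIM1 knocked down, thapsigargin raised 11 of 20 cytosolic members and 1 of 16 mitochondrial members in GemR cells and lowered 0 and 1, against 24.3% of all genes called (12.5% higher, 11.9% lower). The median log2 fold change was 0.40 over the cytosolic and −0.02 over the mitochondrial members, beside −0.01 over all genes. WARS had 5742, 5480 and 5389 counts with thapsigargin, against 2415, 2327 and 2254 with vehicle, 2.37-fold higher (log2 1.25 ± 0.06, adjusted p = 3.3e-12). CARS had 1999, 1842 and 1858 counts with thapsigargin, against 1000, 939 and 856 with vehicle, 2.04-fold higher (log2 1.03 ± 0.07, adjusted p = 4.6e-10). GARS had 10574, 10341 and 9694 counts with thapsigargin, against 5288, 5352 and 4925 with vehicle, 1.97-fold higher (log2 0.98 ± 0.06, adjusted p = 9.6e-11). Treated and vehicle libraries of these genes did not overlap. SARS, AARS and MARS rose by 0.83, 0.74 and 0.70. MARS2 had 199, 238 and 261 counts with thapsigargin, against 355, 364 and 418 with vehicle (log2 −0.71 ± 0.12, adjusted p = 0.00013), the largest change of a mitochondrial member in the 3 responses. WARS2 had 556, 511 and 504 counts with thapsigargin, against 431, 435 and 443 with vehicle (log2 0.26 ± 0.07, adjusted p = 0.012), and its call was lost without replicate 1 of GemR siSTIM1 thapsigargin (adjusted p = 0.059). For MARS2 and WARS2 the treated and vehicle libraries stood apart.

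**Figure D2:**
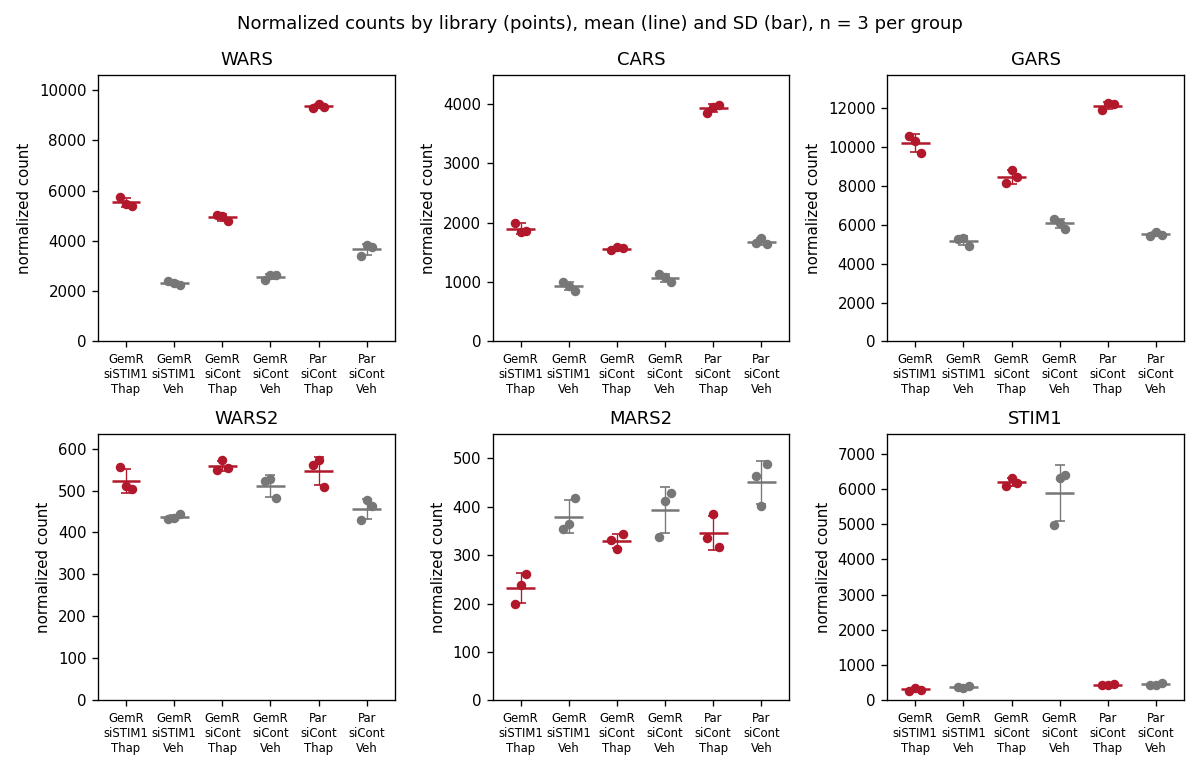
Normalized counts (vertical axis, from 0) of WARS, CARS, GARS, WARS2, MARS2 and STIM1 in each of the 18 libraries, by group, with the group mean as a line and the SD as a bar (n = 3). WARS, CARS and GARS are highest in Par cells with thapsigargin (9309 to 9464 for WARS), MARS2 is lowest in GemR siSTIM1 cells with thapsigargin (199 to 261), and STIM1 is high in both GemR siCont groups alone.

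Set side by side, 11 cytosolic members were called higher in all 3 responses: AARS, CARS, EPRS, GARS, IARS, MARS, NARS, SARS, TARS, WARS and YARS. LARS was higher in 1 response, that of Par cells, with log2 fold changes of 0.12 and 0.03 in GemR siSTIM1 and GemR siCont cells that missed the threshold. The other 8 cytosolic members were called higher in none of the 3. DARS, FARSA, QARS and VARS were called in none of the 3 in either direction. No mitochondrial member was called in all 3, and WARS2 was the 1 member called higher in more than 1. Genes of the multisynthetase complex were mixed. In Par cells 4 of the 8 synthetases of the complex (EPRS, IARS, LARS and MARS) rose and 2 (KARS and RARS) fell, with a median log2 fold change of 0.24, against 8 of the 12 other cytosolic members higher and 0 lower, with a median of 0.80. In GemR siSTIM1 cells 3 of 8 and 8 of 12 were higher, and in GemR siCont cells 3 of 8 and 8 of 12, with 1 and 2 lower. The enzymes fall into class I and class II by the fold of the catalytic domain. In Par cells 6 of 9 class I cytosolic members (without EPRS, which holds an enzyme of each class) and 5 of 10 class II members rose, with medians of 0.63 and 0.41, so both classes held genes that rose.

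The promoter windows were set against these calls, as a count with no test. Of the 10 cytosolic members that rose in Par cells and have a window, 7 hold the core, the genes AARS, CARS, GARS, IARS, MARS, NARS and TARS printed above. EPRS, SARS and WARS rose and hold no TGATGNAA in these windows. None of the 6 cytosolic members that did not rise and have a window (FARSA, FARSB, HARS, KARS, QARS and RARS) holds it. YARS2, the mitochondrial gene with a core, was called higher in none of the 3 responses and had log2 fold changes of −0.05, −0.26 and 0.01 in GemR siSTIM1, GemR siCont and Par cells. Other forms of the element were not searched.

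In most pairs of enzymes for the same amino acid, the cytosolic gene had the higher thapsigargin response. There are 16 pairs, in which EARS2 and PARS2 are both set against EPRS and FARS2 against FARSA. The cytosolic log2 fold change was above that of its mitochondrial counterpart in 13 pairs in GemR siSTIM1 cells (median difference 0.55), in 15 in GemR siCont cells (0.27) and in 14 in Par cells (0.74). The widest gap in Par cells was that of CARS over CARS2, 1.66 on the log2 scale. The 15 pairs in GemR siCont cells include HARS and HARS2, which were in effect equal there (difference 0.00028). These differences were not tested pair by pair. HARS and HARS2 lie head to head on opposite strands and share 437 exon bases, 5.6% of the HARS exons and 11.7% of the HARS2 exons in the GENCODE 29 annotation. Both were lower with thapsigargin in GemR siCont cells, by 0.26 each. The library kit does not mark strand, so reads from such shared bases cannot be assigned to 1 of the genes.

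**Figure D3:**
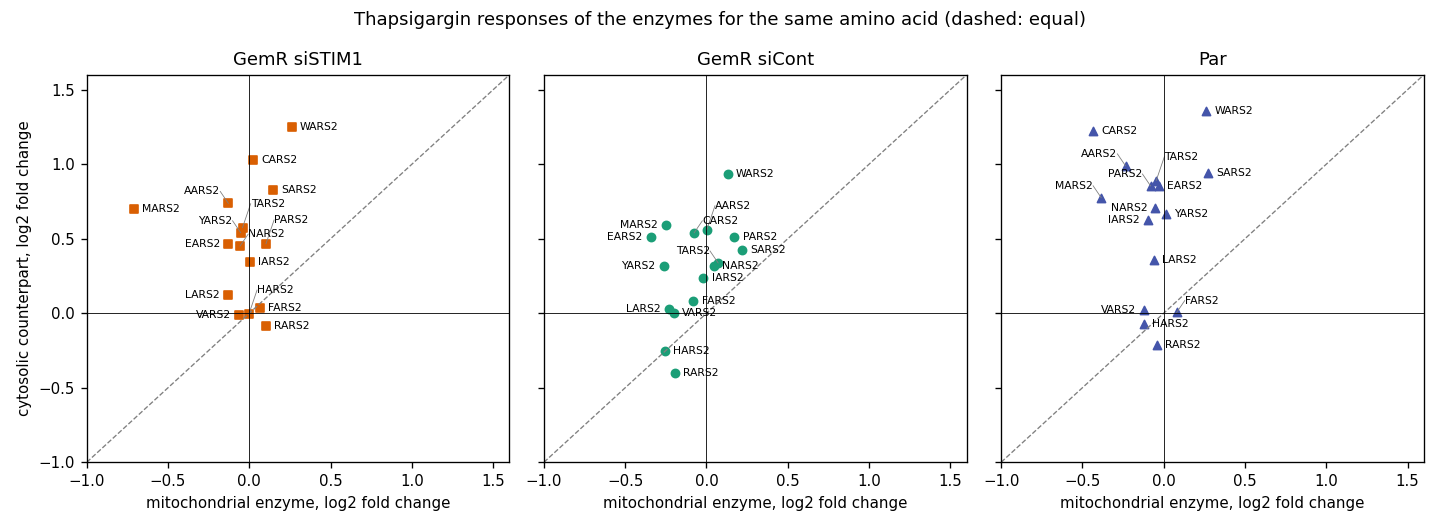
Each symbol is 1 amino acid, labelled by its mitochondrial gene, with the log2 fold change of thapsigargin over vehicle of the mitochondrial enzyme on the horizontal axis and of its cytosolic counterpart on the vertical axis, in GemR siSTIM1, GemR siCont and Par cells. Symbols above the dashed line of equality, 13, 15 and 14 of 16, are pairs whose cytosolic member had the higher value. The HARS2 symbol in GemR siCont cells, counted among the 15, lies in effect on the line (difference 0.00028).

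The response of GemR siCont cells was smaller than that of Par cells for most of the cytosolic genes that rose. The difference between the 2 responses, an interaction term in the same limma fit, was below 0 and called for 11 of 20 cytosolic and 1 of 16 mitochondrial members and above 0 and called for 0 and 0. Of all genes tested 14.8% were called, 7.66% with a negative and 7.14% with a positive difference. The median difference was −0.34 over the cytosolic and −0.06 over the mitochondrial members, beside 0.01 over all genes. CARS had the largest, with log2 responses of 0.54 in GemR siCont and 1.22 in Par cells (difference −0.68 ± 0.09 SE, adjusted p = 3.9e-05). GARS followed, with 0.48 in GemR siCont and 1.14 in Par cells (difference −0.66 ± 0.08, adjusted p = 9.3e-06). TARS, SARS, AARS and WARS differed by −0.55, −0.52, −0.43 and −0.42, and IARS, NARS, YARS, EPRS and LARS by −0.39 to −0.33. MARS, at 0.59 in GemR siCont and 0.78 in Par cells, was the 1 gene raised in all 3 settings whose difference missed the threshold (−0.18 ± 0.08, adjusted p = 0.13). MARS shares 355 exon bases (5.1% of its exons) with DDIT3 on the opposite strand, a stress gene at 1849 ± 161 counts with thapsigargin, against 182 ± 36.5 with vehicle in GemR siCont cells, and at 6732 ± 195 with thapsigargin, against 172 ± 14.98 with vehicle in Par cells. How far DDIT3 reads enter the MARS values was not tested. The mitochondrial call was EARS2 (difference −0.31 ± 0.09, adjusted p = 0.023), which was lost in 6 of the fits that left out 1 library, with an adjusted p of up to 0.059.

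STIM1 knockdown came with a larger response of 4 cytosolic members in GemR cells. This difference and the one before it share the GemR siCont libraries. GARS had a log2 response of 0.98 in GemR siSTIM1 and 0.48 in GemR siCont cells (difference 0.50 ± 0.08, adjusted p = 0.00078), and CARS one of 1.03 in GemR siSTIM1 and 0.54 in GemR siCont cells (difference 0.49 ± 0.09, adjusted p = 0.004). SARS had 0.83 in GemR siSTIM1 and 0.42 in GemR siCont cells (difference 0.41 ± 0.09, adjusted p = 0.0096), and WARS 1.25 in GemR siSTIM1 and 0.94 in GemR siCont cells (difference 0.31 ± 0.08, adjusted p = 0.034). These were 4 of 20 cytosolic members with a positive and 0 with a negative called difference, and 0 of 16 mitochondrial members were called, against 4.41% of all genes tested (1.5% positive, 2.9% negative). The median difference was 0.15 over the cytosolic and 0.10 over the mitochondrial members, beside 0.00075 over all genes. EPRS, which rose in all 3 settings, had a difference of −0.05 ± 0.09. The WARS call was lost in 8 of the fits that left out 1 library, with an adjusted p of up to 0.097, and 2 members were called in place of 4 when only the libraries compared were fitted. The larger SARS response went with a lower vehicle level, 1726.5 normalized counts per kb of exon in GemR siSTIM1 and 2302 in GemR siCont cells. With thapsigargin SARS was at 3072 and 3080 and was not called between them. CARS, GARS and WARS were called lower with the knockdown in vehicle and higher with thapsigargin. The responses of GemR siSTIM1 and Par cells, which differ in line and in siRNA, were set against each other as well. EPRS (−0.39 ± 0.09, adjusted p = 0.015), TARS (−0.32), NARS (−0.25) and AARS (−0.25) had a smaller response in GemR siSTIM1 than in Par cells. CARS2 had a positive difference (0.46 ± 0.13, adjusted p = 0.042), with log2 responses of 0.02 in GemR siSTIM1 and −0.44 in Par cells. That made 4 of 20 cytosolic members negative and 1 of 16 mitochondrial members positive, against 7.98% of all genes (4.93% negative, 3.05% positive), and the count of 5 members changed to between 1 and 8 when 1 library was left out, 8 without replicate 1 of GemR siCont vehicle.

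**Figure D4:**
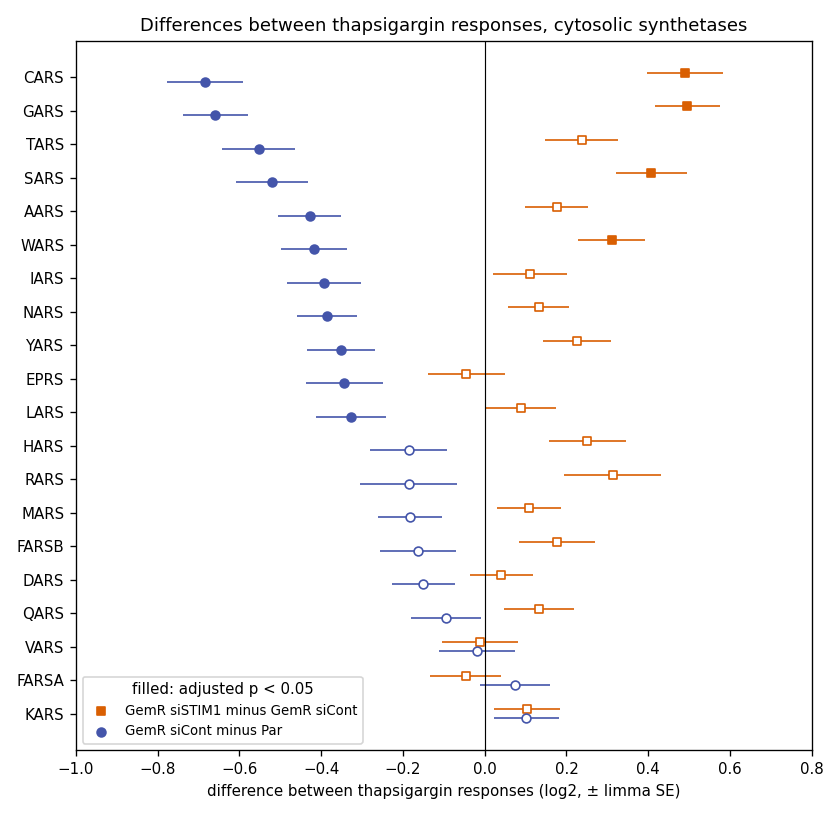
The horizontal axis gives the difference between 2 thapsigargin responses on the log2 scale, with the limma standard error, for the 20 cytosolic members: GemR siSTIM1 minus GemR siCont (squares) and GemR siCont minus Par (circles), filled at adjusted p under 0.05. All 11 filled circles lie left of 0, from CARS (−0.68) to LARS (−0.33), and the 4 filled squares, CARS, GARS, SARS and WARS, lie right of it.

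In vehicle, 5 of 20 cytosolic members were higher and 7 lower in GemR siCont than in Par cells, and 2 of 16 mitochondrial members were higher and 2 lower, against 38.2% of all genes called (18.1% higher, 20.1% lower). That is 16 of 36 members, a share near that of all genes, with median log2 differences of −0.04 over the cytosolic and 0.01 over the mitochondrial members. CARS averaged 1075 ± 66.3 counts in GemR siCont cells and 1680 ± 53.8 in Par cells (SD, n = 3 each), 1.56-fold lower (log2 −0.65 ± 0.07, adjusted p = 2.6e-07). YARS averaged 2021 ± 81.5 in GemR siCont and 2906 ± 94.6 in Par cells (log2 −0.52), and WARS 2577 ± 106 in GemR siCont and 3666 ± 226 in Par cells (log2 −0.51). MARS, EPRS, NARS and QARS were lower by log2 values of −0.40, −0.28, −0.20 and −0.18, and the QARS call was lost without replicate 2 or 3 of either group and with median centring (adjusted p of up to 0.094 in these fits). HARS (0.38), RARS (0.36), DARS (0.32), KARS (0.24) and LARS (0.22) were higher in GemR siCont cells. Of the 8 synthetases of the multisynthetase complex, 4 were higher and 3 lower, with a median log2 difference of 0.10. Among mitochondrial members, SARS2 (log2 −0.59 ± 0.11, adjusted p = 0.00045) and AARS2 (−0.50 ± 0.11, adjusted p = 0.0014) were lower. PARS2, the mitochondrial prolyl enzyme, averaged 124 ± 20.1 counts in GemR siCont and 88.0 ± 17.8 in Par cells (log2 0.50 ± 0.16, adjusted p = 0.019), and its call was lost without replicate 3 of either group. HARS2 was higher by 0.23 (adjusted p = 0.014), a call lost without replicate 2 of Par vehicle. When only the 6 libraries compared were fitted, 9 members were called in place of 16. Of the 5 listed epithelial markers, 4 were called lower and 0 higher in GemR siCont than in Par cells in vehicle (median log2 −0.84).

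Under thapsigargin the lines stood further apart. In GemR siCont cells 3 of 20 cytosolic members were higher and 12 lower than in Par cells, and 3 of 16 mitochondrial members were higher and 3 lower, against 48.2% of all genes called (23.2% higher, 25% lower). The median log2 difference was −0.45 over the cytosolic and −0.07 over the mitochondrial members, beside −0.0046 over all genes. CARS averaged 1561 ± 24.9 counts in GemR siCont and 3926 ± 69.6 in Par cells, 2.51-fold lower (log2 −1.33 ± 0.07, adjusted p = 6.5e-12). WARS averaged 4934 ± 124 in GemR siCont and 9369 ± 82.9 in Par cells (log2 −0.93 ± 0.06, adjusted p = 1.7e-10), and YARS 2513 ± 90.7 in GemR siCont and 4613 ± 217 in Par cells (log2 −0.88 ± 0.06, adjusted p = 6.2e-10). EPRS, NARS and MARS were lower by log2 values of −0.62, −0.59 and −0.58. KARS (0.34), HARS (0.20) and DARS (0.17) were higher. The HARS and DARS calls were lost in 2 and 4 of the fits that left out 1 library, among them those without replicate 2 of Par thapsigargin. Of the mitochondrial genes, PARS2 (0.76 ± 0.16, adjusted p = 0.00075) and CARS2 (0.50 ± 0.10, adjusted p = 0.00023) were higher and SARS2 (−0.64 ± 0.11, adjusted p = 0.00014) was lower in GemR siCont cells. SARS2 shares 46.2% of its exon bases with a second annotated gene on its strand, so its values are uncertain.

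CARS lies in 11p15.4 (chromosome 11, 3000922 to 3057613 on the minus strand of GRCh38, GENCODE 29), the band that also holds STIM1 and RRM1, the large subunit of ribonucleotide reductase, the enzyme that gemcitabine inhibits. The gap to STIM1 is 796.9 kb and that to RRM1 1037.1 kb. In vehicle, STIM1 and RRM1 were higher in GemR siCont than in Par cells, by 3.68 and 4.16 on the log2 scale, whereas CARS was lower. Of 12 listed genes of the region, 4 of them on the side of CARS away from RRM1, these 2 were higher and 7 were lower, CARS among them and NUP98, a nuclear pore gene, the lowest (−0.78), and 3 were not called. In the same comparison 18.1% of all genes tested were higher and 20.1% lower.

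Levels in GemR siSTIM1 and GemR siCont cells were compared in each condition. In vehicle, 1 of 20 cytosolic members was higher and 6 lower in GemR siSTIM1 than in GemR siCont cells, and 0 of 16 mitochondrial members were higher and 6 lower, against 42% of all genes called (20.9% higher, 21.1% lower). SARS averaged 6623 ± 267 counts in GemR siSTIM1 and 8831 ± 710 in GemR siCont cells (log2 −0.41 ± 0.06, adjusted p = 3.7e-05). EPRS was higher (0.29 ± 0.07, adjusted p = 0.0019), and KARS, GARS, CARS, FARSA and WARS were lower by −0.23 to −0.14. EARS2 averaged 1325 ± 68.9 in GemR siSTIM1 and 1848 ± 145 in GemR siCont cells (log2 −0.48 ± 0.06, adjusted p = 1.1e-05), and VARS2 (−0.40), NARS2 (−0.35), CARS2 (−0.30), RARS2 (−0.28) and WARS2 (−0.22) were lower too. The WARS call (adjusted p = 0.05) was lost in 14 of the fits that left out 1 library and the FARSA call in 5, the CARS2 and WARS2 calls in 3 each, and the RARS2 and CARS calls in 2 each, with an adjusted p of up to 0.16 for WARS, 0.12 for FARSA and 0.12 for RARS2 in these fits. When only the 6 libraries compared were fitted, 5 members were called in place of 13.

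With thapsigargin, 8 of 20 cytosolic members were higher and 1 lower in GemR siSTIM1 than in GemR siCont cells, and 1 of 16 mitochondrial members was higher and 4 lower, against 36.6% of all genes called (17.7% higher, 18.9% lower). CARS averaged 1900 ± 86.7 counts in GemR siSTIM1 and 1561 ± 24.9 in GemR siCont cells (log2 0.28 ± 0.07, adjusted p = 0.0022), and GARS 10203 ± 456 in GemR siSTIM1 and 8481 ± 353 in GemR siCont cells (log2 0.27 ± 0.06, adjusted p = 0.00092). EPRS (0.24), LARS (0.23), YARS (0.22), AARS (0.20), QARS (0.19) and WARS (0.17) were also higher, and FARSA was lower (−0.21). The level of CARS in GemR siSTIM1 cells with thapsigargin stayed under that of Par cells with thapsigargin, 3926 ± 69.6. MARS2 averaged 233 ± 31.6 in GemR siSTIM1 and 329 ± 14.7 in GemR siCont cells (log2 −0.51 ± 0.12, adjusted p = 0.0021), and NARS2 (−0.45 ± 0.09, adjusted p = 0.00073), VARS2 (−0.26) and EARS2 (−0.26) were lower as well. NARS2, VARS2 and EARS2 were thus lower with the knockdown in both conditions. VARS2 shares 1858 exon bases with GTF2H4 on the same strand, so its values are uncertain. The QARS, WARS and VARS2 calls were each lost in 3 or 4 of the fits that left out 1 library.

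On a scale of normalized counts per kb of exon, averaged over the 6 groups, the cytosolic members ranged from 184 (CARS) to 2791 (SARS) with a median of 747, and the mitochondrial members from 40.5 (CARS2) to 687 (IARS2) with a median of 134. GARS (1911) and AARS (1584) followed SARS. The cysteinyl enzymes were thus the lowest of each compartment on this scale, which divides by all annotated exon bases and so understates genes with many alternative exons, as CARS (10037 exon bases) and CARS2 (10460) have.

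Other genes of the stress response and of tRNA charging and use were read from listed groups. Of all genes tested, 24.3%, 33.6% and 40.1% were called for thapsigargin in GemR siSTIM1, GemR siCont and Par cells. The shares called higher were 12.5%, 17.9% and 20.5%. The lists after that of ATF4 are short, and their counts are given without a conclusion about the list. All 10 of ATF4 and listed targets of it rose with thapsigargin in GemR siSTIM1 cells (median log2 1.43), 9 of 10 in GemR siCont cells (1.25) and 10 of 10 in Par cells (1.85). The ATF4 transcript rose by 1.28, 1.30 and 2.06 on the log2 scale, DDIT3 by 4.32, 3.35 and 5.29, and CHAC1, a glutathione-degrading enzyme, by 4.41, 4.82 and 6.97 in GemR siSTIM1, GemR siCont and Par cells. The response of 7 of the 10 was smaller in GemR siCont than in Par cells and of 0 larger, against 7.66% and 7.14% of all genes tested. In GemR cells the response of 4 of the 10 was larger with STIM1 knocked down, ASNS, DDIT3 and TRIB3 among them (by 0.49, 0.97 and 0.82), while that of ATF4 itself did not pass the test (−0.02 ± 0.10). The 10 differences ran from −0.41 to 0.97, and 0 were called with a smaller response. That of CHAC1 was below 0 (4.41 in GemR siSTIM1 and 4.82 in GemR siCont cells). Among all genes tested, 1.5% were called with a larger response in that comparison and 2.9% with a smaller one. The scaffolds AIMP1, AIMP2 and EEF1E1 were called in 0 of 3 cases in GemR siSTIM1 and in Par cells, and in GemR siCont cells AIMP1 (−0.32) and EEF1E1 (−0.61) fell. Of 5 genes that make and deliver selenocysteinyl-tRNA, 2 rose in GemR siSTIM1 cells (PSTK by 0.48 and SEPHS2 by 0.29), 0 rose and SEPHS1 fell by 0.26 in GemR siCont cells, and 2 rose in Par cells (SEPSECS by 0.80 and SEPHS2 by 0.64). Of 7 cytosolic elongation factors EEF2 alone rose, by 0.24, 0.33 and 0.46 in GemR siSTIM1, GemR siCont and Par cells, and EIF5A fell by 0.19 in Par cells. Of 4 genes for the mitochondrial amidotransferase and initiator formylation, 2 fell in Par cells: MTFMT by 0.43 and GATC by 0.22, and 0 were called in the other responses. Of 4 mitochondrial elongation factors, GFM1 rose in Par cells (0.16) and TSFM fell in GemR siCont cells (−0.32). The deacylases DTD1 and DTD2 were not called in any response.

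The authors' deposited tables of their own comparisons gave close counts for the members. At an adjusted p under 0.05 in the authors' deposited table, thapsigargin raised 11 cytosolic members in GemR siSTIM1, 11 in GemR siCont and 12 in Par cells and lowered 0, 3 and 1. The same authors' deposited tables called 1, 0 and 1 mitochondrial members higher and 1, 4 and 2 lower. The 1 member called here and not there is RARS in Par cells, at an adjusted p of 0.0521 in the authors' deposited table. Treated GemR siSTIM1 and treated GemR siCont cells were each compared with untreated Par cells in the authors' deposited tables as well, where 13 and 12 cytosolic members were higher and 2 and 2 lower, and 3 and 2 mitochondrial members were higher and 6 and 7 lower. Both comparisons mix line and treatment, and the first also siRNA. The shares of all genes called in the deposited tables were not computed. These counts are therefore not read as a result about the members.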

How the data were processed

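RNA-seq of 18 libraries was deposited as 1 table of normalized counts per gene, a signal that the authors made by dividing read counts by 1 size factor per library. The submitters' processing notes name hg38, STAR 2.6.0c, HTSeq 0.11.1 and DESeq2; the sources used here do not give the annotation, filters or strand setting, and the kit named in the labels (TruSeq RNA Library Prep Kit v2) does not mark strand. The authors also deposited 5 DESeq2 tables with log2 fold changes, standard errors and Wald scores, and p-values. No column of per-sample values was left unused (0).

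Genes with a mean of at least 10 normalized counts (13096 of 26485) were tested as log2(value + 1) with limma 3.58.1 (trend, 1 mean per group, 12 residual degrees of freedom, Benjamini-Hochberg adjustment within each of 10 comparisons). Fold changes on this scale understate changes of low genes. Whole reads were recovered in all 18 libraries (100% of values within 0.01 of a whole number of steps). Replicate 3 of GemR siSTIM1 vehicle, whose step (0.993) lay nearest to 1, was left out of the count tests, though it passed the same check. On the other 17 libraries edgeR 4.0.16 called 2630, 4357 and 5204 genes and DESeq2 1.42.0 called 2817, 4431 and 5142 genes for thapsigargin in GemR siSTIM1, GemR siCont and Par cells, against 2648, 4252 and 5128 with limma on the same libraries and 3187, 4402 and 5253 with limma on all 18. The scripts were tested on simulated data.

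Libraries of different groups share the numbers 1 to 3. Deviations from group means correlated above 0.1 in 9 of 45 pairs with the same number and in 12 of 90 with different numbers. The highest values were 0.49 and 0.30. These values do not settle whether the numbers mark pairs. The numbers were not taken as pairs in the main fit, and a fit with the number as a block is given below. The members, gene lists and naming rule (for each comparison up to 6 called cytosolic and 4 called mitochondrial members with the largest change in full, the others by value or count, and up to 3 genes of each other list) were chosen with earlier results of these data known. ATF4 and a few genes named for a shared exon or a count were named after their values were seen.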

Additional observations from a re-analysis of the deposited data

Results flagged for a closer look

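Differences between 2 thapsigargin responses that passed the test (limma interaction terms, adjusted p under 0.05) are gathered here, on the log2 scale. For the response of GemR siCont cells minus that of Par cells they were −0.68 (CARS), −0.66 (GARS), −0.55 (TARS), −0.52 (SARS), −0.43 (AARS), −0.42 (WARS), −0.39 (IARS), −0.39 (NARS), −0.35 (YARS), −0.34 (EPRS), −0.33 (LARS) and −0.31 (EARS2). For GemR siSTIM1 minus GemR siCont they were 0.50 (GARS), 0.49 (CARS), 0.41 (SARS) and 0.31 (WARS). For GemR siSTIM1 minus Par they were −0.39 (EPRS), −0.32 (TARS), −0.25 (NARS), −0.25 (AARS) and 0.46 (CARS2). Any 2 of these 3 differences share the libraries of 1 response. The causes were not tested.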

How the results depend on the processing

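Of 360 member values, 133 passed the threshold; 89 of these also passed under all 30 other settings and 44 missed it under at least 1, and 0 changed sign with a call. Cytosolic members called higher numbered 11 to 12 in GemR siSTIM1, 10 to 11 in GemR siCont and 12 to 13 in Par cells over all settings. Fitting only the libraries compared gave 9 members in place of 16 for GemR siCont over Par in vehicle, 5 in place of 13 for GemR siSTIM1 over GemR siCont in vehicle and 2 in place of 4 for the GemR siSTIM1 minus GemR siCont response, but 27 in place of 21 for GemR siCont over Par with thapsigargin and 7 in place of 5 for the GemR siSTIM1 minus Par response. It also ended the calls of IARS, HARS, FARSB, YARS2, HARS2 and LARS2 in GemR siCont cells. For GemR siSTIM1 minus Par, 5 members became 1 with no filter on low values, 2 with median centring and 1 with quantile normalization. The edgeR fit used 17 libraries, without replicate 3 of GemR siSTIM1 vehicle, and called 8 members for GemR siSTIM1 over GemR siCont in vehicle, against 9 with limma on the same libraries, and 2 for GemR siSTIM1 minus Par, against 4 with limma on the same libraries. Quantile normalization also ended the GemR siCont minus Par calls of EPRS, LARS and YARS. The causes were not tested.

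Leaving out 1 library gave 12 to 13 members for thapsigargin in GemR siSTIM1, 16 to 19 in GemR siCont and 15 to 18 in Par cells, and 11 to 14, 3 to 5 and 1 to 8 for the GemR siCont minus Par, GemR siSTIM1 minus GemR siCont and GemR siSTIM1 minus Par responses. For GemR over Par it gave 18 to 25 with thapsigargin and 14 to 19 in vehicle, and for siSTIM1 over siCont 10 to 18 with thapsigargin and 9 to 14 in vehicle. Without replicate 1 of GemR siCont vehicle and replicate 1 of GemR siSTIM1 thapsigargin together, which stood apart in earlier work on these data, the counts were 14, 19 and 19 for thapsigargin in GemR siSTIM1, GemR siCont and Par cells. For GemR over Par they were 26 in place of 21 with thapsigargin and 19 in place of 16 in vehicle. For siSTIM1 over siCont they were 17 in place of 14 with thapsigargin and 13 in vehicle, as before. The 3 differences between responses, in the order above, gave 15, 6 and 7 in place of 12, 4 and 5. With the replicate number as a block, the counts were 13, 18 and 17 for thapsigargin in GemR siSTIM1, GemR siCont and Par cells, 12, 4 and 5 for the 3 differences between responses in the order above, 21 with thapsigargin and 17 in vehicle for GemR over Par, and 15 with thapsigargin and 12 in vehicle for siSTIM1 over siCont; the block moved no count by over 1.5 times and ended 1 call, WARS for siSTIM1 over siCont in vehicle. Same-numbered libraries correlated from −0.18 to 0.49 (median 0.02). A member that missed the threshold with 3 libraries per group is not shown to be unchanged.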
